A study of Mus musculus with 8 samples.

Results

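The genes described here encode the nuclear subunits of the mitochondrial respiratory chain and ATP synthase. They were chosen by symbol: a probe set counted as a member where the platform annotation gave it exactly 1 gene symbol that starts with Nduf (complex I), Sdha to Sdhd (complex II), Uqcr (complex III), Cox4 to Cox8 (complex IV) or Atp5 (complex V, the ATP synthase). On an array of 12422 probe sets besides controls this gave 100 probe sets for 73 genes, of 8251 genes with a probe set of their own. By complex there were 29 genes of complex I, 4 of complex II, 7 of complex III, 15 of complex IV and 14 of complex V, and the rule also took in 4 assembly factors that share a prefix. Where a gene had several probe sets, the brightest stood for it. Ndufs7, Ndufs8, Uqcrfs1, Atp5b, Atp5g3, Cox4i2 and the ATP synthase inhibitor Atp5if1 were not analysed here.

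The series compared mouse aortic endothelial cells at a pair of culture densities. A Confluent sample was a monolayer that had matured at full density. A Subconfluent sample came from cells covering less than 50% of the surface. Each group held 4 samples, 1 array each, and the labels used here name no genotype, strain, age, passage or treatment besides density. The labels number the samples 1 to 4 in each group as separate experiments, and do not say whether cultures were independent, so p-values measure the spread between these samples.

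The respiratory chain passes electrons from NADH (through complex I) and from succinate (through complex II) to ubiquinone, then through complex III and cytochrome c to oxygen at complex IV. Complexes I, III and IV pump protons across the inner mitochondrial membrane, and complex V lets them flow back to make ATP. Endothelial cells are known for drawing much of their ATP from glycolysis, with the chain also serving redox balance and biosynthesis. The subunits come from both the nuclear and the mitochondrial genome, and a subunit made without its partners is usually degraded, so the transcript level of a single subunit does not give the amount of its complex.

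A value below is a signal, the authors' summary of 1 probe set's brightness on a linear scale after each array was scaled to a target of 500. Signals of different probe sets cannot be ranked against each other. Differences are Subconfluent minus Confluent on the log2(signal + 50) scale, which understates changes of dim genes, and a gene rose or fell where limma's adjusted p was under 0.05 over the 6007 probe sets whose signals averaged 200 or more. Scale factors ran from 3.05 to 13.3 and the arrays' median signals from 169 to 187. Same-numbered samples deviated together, so the number was also fitted as a block, and its values are given where it changed a call.

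Markers of the labelled cell type were mostly dim. Of 18 endothelial markers on the array, 2 (Eng and Procr) reached the minimum, while Pecam1, Cdh5, Kdr, Tek and Vwf did not. The signal summed over all 18 was 1870 to 2459 in Confluent and 2025 to 2446 in Subconfluent samples. Of 13 fibroblast and pericyte markers 8 (61.5%) reached it, near the 56.6% of all genes. The collagen genes Col1a1 and Col3a1 were among the 8, while Dpt, Fap, Pdgfrb, Postn and Rgs5 did not reach it. The sum over all 13 was 54692 to 80654 in Confluent against 26281 to 39996 in Subconfluent samples. Of the 8 tested 4 fell, with a median difference of -1.06, a shift in the same direction as the falls described next, and its part in them was not tested. The 2 tested smooth muscle markers, Acta2 and Tagln, went the other way, with a median of 1.30. Of the adipocyte markers Lep (0.50) and of the macrophage markers Cd14 (-0.70) were tested, and 0 of these passed. The sum over all 8 macrophage markers on the array was 2433.5 to 3849 in Confluent against 1724.5 to 2414.4 in Subconfluent samples. That over 4 adipocyte markers was 455.8 to 836.3 against 835.1 to 1152.6. Most of these markers were under the minimum, and their part in the falls was not tested.

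Among the 60 members that reached the minimum, 3 fell and 0 rose in Subconfluent cells. The 3 were Ndufv3 of complex I, Cox7a2l, a relative of a complex IV subunit, and Atp5e of complex V. The share that fell was 5% against 4.06% of all probe sets tested, and 2.75% of all probe sets rose. With the replicate block 8 members fell and 0 rose, and the shares over all probe sets were 11.3% lower and 9.94% higher. The fallen share of 13.3% is again near its background. Signs were mixed, since 25 members had a positive and 35 a negative difference, with a median of -0.05 against 0.00 over all 4670 genes tested.

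The differences lay in a narrower range than over the array as a whole. The middle 50% lay between -0.22 and 0.10 and the SD of the differences was 0.27, against 0.50 over all genes tested. Only 5 of 60 members (8.33%) differed by more than 0.5, against 1060 of 4670 genes (22.7%). For 28 members (46.7%) the 95% interval of the difference lay wholly within 0.5 of 0, as it did for 896 genes in all (19.2%), and for 55 members it lay within 1 of 0. These probe sets were also bright, with a median signal of 2119 against 691 over all genes tested, and their replicates were closer, with a median SD within groups of 0.22 against 0.28 on the log2 scale. The part of brightness in the narrow range was not tested. In bulk samples a lower signal cannot be told apart from fewer cells of a type that carries more of the transcript.

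**Figure D1:**
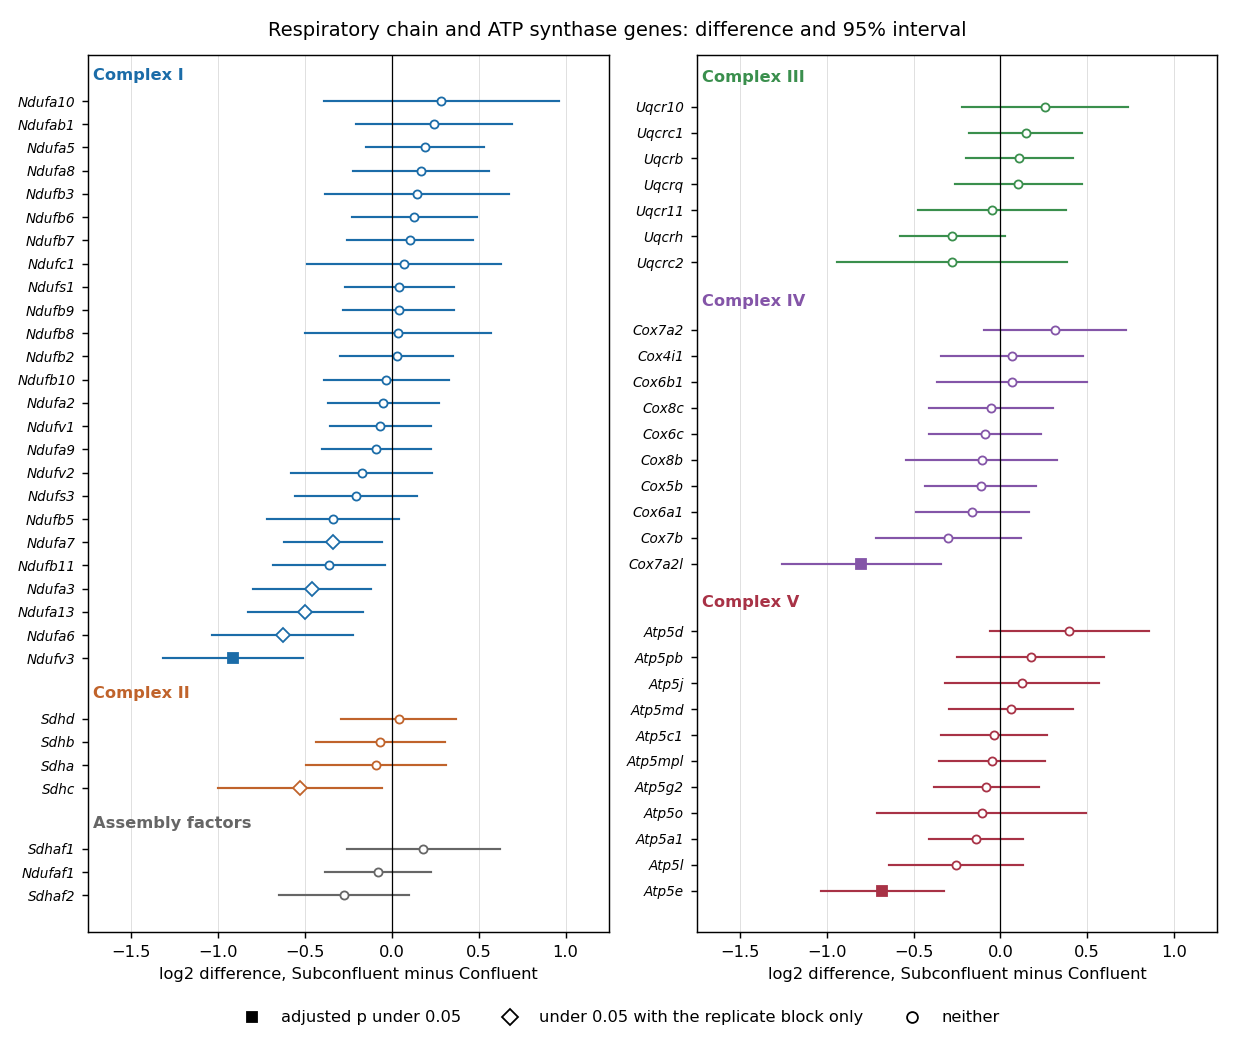
Difference of each tested member on the log2(signal + 50) scale (horizontal axis, Subconfluent minus Confluent), with its 95% interval from limma, by complex. Ndufv3 (-0.92), Cox7a2l (-0.80) and Atp5e (-0.68) are the filled squares, diamonds passed with the replicate block alone, and every interval of complex III crosses 0.

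Complex I has a hydrophilic arm that takes electrons from NADH and hands them to ubiquinone, and a membrane arm that pumps protons. Of its 29 genes 25 were tested, 12 with a positive and 13 with a negative difference, and the median was -0.03. Ndufv3 fell, and 4 more accessory subunits (Ndufa6, Ndufa13, Ndufa3 and Ndufa7) fell with the replicate block alone. Its core electron-transfer subunits did not pass in either fit.

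Ndufv3, an accessory subunit bound to the NADH-oxidising tip, had signals of 1326, 1103, 1099 and 1399.5 in Confluent samples 1 to 4. In Subconfluent samples 1 to 4 it had 706, 438, 687 and 718. The groups did not overlap, although Subconfluent 2 lay far below the other 3. The difference was -0.92 (SE 0.184, adjusted p = 0.0197 by limma), or 1.89-fold lower. The labels give the chip lot of each array, and only the lots called A and C here held both groups. The difference was -0.86 within lot A (1 array against 1), -0.61 within lot C (1 against 2, adjusted p = 0.287) and -0.72 with the lot as a block (adjusted p = 0.0439). Without Confluent 4 the adjusted p was 0.0581, the one array whose removal ended this call, and with the replicate block it passed without any 1 pair.

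The flavoprotein that binds NADH, Ndufv1, and its iron-sulfur partner Ndufv2 sit beside Ndufv3. Ndufv1 had a mean signal of 6803 ± 401 (SD, n = 4) in Confluent and 6507 ± 657 (SD, n = 4) in Subconfluent cells, a difference of -0.07 with a 95% interval from -0.36 to 0.22. Ndufv2 differed by -0.18, with an interval from -0.58 to 0.23, and its dimmer second probe set by -0.26. Ndufs1, the largest iron-sulfur subunit of the same module, differed by 0.04 (interval -0.27 to 0.36). Its interval lay above that of Ndufv3 (-1.32 to -0.51), and a difference between these genes was not tested. Ndufs3, a core subunit next to the ubiquinone site, differed by -0.21 (interval -0.56 to 0.15).

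Ndufa6, a small accessory subunit of the hydrophilic arm, gave 711, 505, 480.4 and 588 in Confluent and 441, 268, 376 and 325 in Subconfluent samples. All Subconfluent values lay below all Confluent ones. Its difference of -0.63 (SE 0.185) had an adjusted p of 0.0637, and of 0.0167 with the replicate block. Ndufa7, also in the hydrophilic arm, had Confluent signals of 8167, 7969, 8512 and 8206. Its Subconfluent signals were 5920, 6283, 7513 and 6302, again without overlap, for a difference of -0.34 (adjusted p = 0.124, and 0.0472 with the block).

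Ndufa13 (also known as GRIM-19) and Ndufa3 lie in the membrane arm next to the hydrophilic arm. Ndufa13 had 1552, 1719, 1603 and 1945 in Confluent and 1031, 1131, 1332 and 1279.8 in Subconfluent samples. Ndufa3 had 2966, 2289.9, 2386 and 2847 against 2029, 1586, 1949.8 and 1990.4. Neither gene's groups overlapped. The tested probe set of Ndufa3 carries an ending other than plain _at, which marks sets that relaxed the design rules or may be shared. Their differences of -0.50 and -0.46 had adjusted p-values of 0.0681 and 0.0902, and 0.0247 and 0.0259 with the block.

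The other block calls in complex I were lost in some fits without 1 pair. Ndufa13, Ndufa3 and Ndufa7 each missed the threshold when any 1 pair was left out, with adjusted p-values of 0.054 to 0.162 over those fits. Ndufa6 missed it without pair 1 (0.0623) or pair 4 (0.0774). The direction of these 4 genes was the same in each such fit.

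By position in the complex, the NADH module had 1 positive and 6 negative differences among its 7 tested genes, with a median of -0.18. The distal membrane arm had 6 positive and 3 negative among 9, with a median of 0.03 and a range from -0.36 (Ndufb11) to 0.14 (Ndufb3). Ndufb11, an X-linked accessory subunit, was the one distal gene whose groups did not overlap. Its Confluent signals were 1189 to 1418 and its Subconfluent signals 827 to 1075, with an adjusted p of 0.146. The 5 tested genes of the proximal arm had a median of 0.07 and the 3 of the ubiquinone module -0.09. This grouping was drawn up after the values had been seen, and published schemes place Ndufa6 and Ndufa7 differently. Both lie below the NADH module's median, at -0.63 and -0.34, so that median depends on the scheme used.

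The highest difference in complex I was 0.28 in Ndufa10, with an interval from -0.39 to 0.96. Its signals spread widely, from 124.5 (Confluent 3) to 462, and without Confluent 3 the difference was -0.04, so its sign and rank rest on that array. Ndufab1, the mitochondrial acyl carrier protein that also serves fatty acid synthesis, followed at 0.24. Within lot A Ndufab1 differed by 0.90 and within lot C by 0.44, and with the lot as a block by 0.64 (adjusted p = 0.0654). Ndufa1, Ndufa12, Ndufc2 and Ndufs4 stayed under the minimum, with mean signals from 21.2 to 189 in either group.

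**Figure D2:**
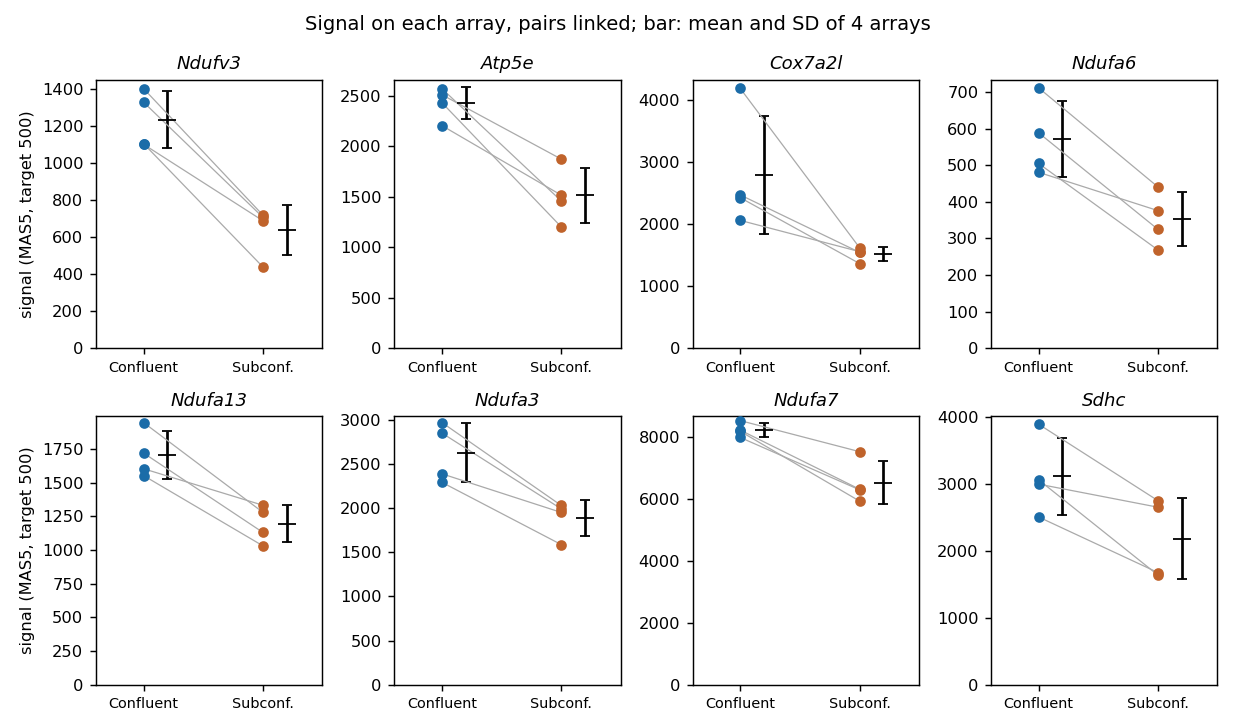
Signal on each array (vertical axis, from 0, scaled to a target of 500) for the 8 members that fell with or without the replicate block, same-numbered samples linked, with the mean and SD of 4 arrays beside each group. All 8 genes are lower in Subconfluent cells in 4 of 4 pairs, and only Sdhc has overlapping groups.

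Complex II, succinate dehydrogenase, is also an enzyme of the citric acid cycle and has no mitochondrially encoded subunit. All 4 genes were tested and 0 passed without the block, with a median of -0.08. Sdhc, 1 of the pair of membrane anchors, fell with the block (adjusted p = 0.0289, against 0.149 without). Its signals were 3061, 2506, 3891 and 2996 in Confluent and 1639, 1677, 2751 and 2652 in Subconfluent samples. The groups overlapped between Confluent 2 and Subconfluent 3 and 4, while each pair was lower in its Subconfluent member.

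The difference for Sdhc was -0.53 (SE 0.215). It was -0.67 with the chip lot as a block (adjusted p = 0.0456), -0.88 within lot A and -0.52 within lot C. The block call was lost without pair 1 (adjusted p = 0.0904), pair 2 (0.0603) or pair 3 (0.1001). The other membrane anchor, Sdhd, differed by 0.04 with an interval from -0.29 to 0.37. Sdha, the flavoprotein that oxidises succinate, differed by -0.09 (interval -0.50 to 0.31), and Sdhb, the iron-sulfur subunit, by -0.07 (interval -0.44 to 0.31). The mean of the 4 genes on Subconfluent 2 lay 0.46 below the Confluent mean, the lowest of the 8 arrays, where Sdhb was also lowest at 1096 against 1469 to 1749.8 on the other 7.

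Complex III oxidises ubiquinol and reduces cytochrome c. Of its 7 genes all were tested and 0 passed in either fit, with 4 positive and 3 negative differences and a median of 0.10. The core proteins Uqcrc1 and Uqcrc2, which form the matrix face, differed by 0.15 (interval -0.18 to 0.47) and -0.28 (interval -0.94 to 0.38). Uqcrc2 had 1982, 1527, 775 and 1329 in Confluent and 1706, 1105, 705 and 1050.4 in Subconfluent samples. Its groups overlapped widely because the numbered samples differed more than the densities did, and each pair was lower in its Subconfluent member.

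Uqcrh, the hinge protein beside cytochrome c1, was the one member of complex III whose groups did not overlap. It had 2507, 2365, 2026 and 2275 in Confluent against 1916, 1740.3, 1889 and 1982 in Subconfluent samples, a difference of -0.28 with an adjusted p of 0.231. The small subunit Uqcr10 had the highest difference, 0.26. The within-lot values of Uqcr10 were 0.71 in lot A and 0.49 in lot C, with an adjusted p of 0.0555 with the lot as a block. Uqcrb, a subunit near the ubiquinone site, and Uqcrq differed by 0.11 and 0.10.

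Complex IV, cytochrome c oxidase, passes the electrons to oxygen, and several of its nuclear subunits exist as isoforms of different tissues. Of its 15 genes 10 were tested, with 3 positive and 7 negative differences and a median of -0.10. Cox7a2l fell and the other 9 did not pass in either fit. Cox7a2l is related to subunit 7a and is known for joining complexes III and IV into supercomplexes.

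Cox7a2l had Confluent signals of 4180, 2056, 2466 and 2422 and Subconfluent signals of 1618, 1554, 1542 and 1362. The Subconfluent samples were close together and lay below all Confluent samples, of which sample 1 stood well above the other 3. The difference was -0.80 (SE 0.208, adjusted p = 0.0445 by limma), or 1.74-fold lower. It was -1.34 in lot A, -0.75 in lot C and -1.002 with the lot as a block (adjusted p = 0.0219). Without Confluent 1 it was -0.59 with an adjusted p of 0.0594, and the call was also lost without each other array but Confluent 2, with adjusted p-values up to 0.108. Median centring (0.0523), the scale factor as a covariate (0.0531), no signal filter (0.0708) and the values of lot C alone (0.247) ended it as well. The direction held in each of these fits, and with the replicate block it passed without any 1 pair.

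Cox7a2, the widely expressed subunit 7a, had a positive difference that did not pass. Its signals were 3092, 5017, 4544 and 4922 in Confluent and 4482, 6221, 5851 and 5149.5 in Subconfluent samples. Each pair was higher in its Subconfluent member, and the groups overlapped. The difference was 0.32 (SE 0.185, adjusted p = 0.317, and 0.0897 with the block). The muscle isoform Cox7a1 had signals of 4.5 to 58.9 and was not tested.

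The other isoform families were measured in part. Cox6a1, the widely expressed subunit 6a, differed by -0.16 (interval -0.49 to 0.17), and its muscle counterpart Cox6a2 stayed at 29.1 to 53.6. Cox6b1 differed by 0.06 (interval -0.37 to 0.50), and its testis counterpart Cox6b2 stayed at 9.1 to 85.2. Cox4i1, the usual subunit 4, differed by 0.07 on its brighter and by -0.11 on its dimmer probe set, with both intervals crossing 0. Cox5b, a zinc-binding subunit, differed by -0.11 (interval -0.43 to 0.20).

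Signals for subunit 8 did not match the tissues its isoforms are known for. Cox8a, the form most tissues use, had signals of 13.1 to 63.8, under the minimum. Cox8b, a heart and muscle form, reached 258 to 488 on a probe set with an ending that marks a relaxed design, while its other set read 28.1 to 76.1. Cox8c, a testis form, read 903 to 1364 on 1 set and 3.6 to 14.4 on its other. Cox5a, a subunit that every oxidase needs, also lay under the minimum, at 13.9 to 43.8 in Confluent and 54.3 to 106.4 in Subconfluent samples, and its other set read 15 to 44.2. Probe sets of 1 gene thus differed widely in brightness, and a signal under the minimum does not show that a transcript was absent. Neither Cox8b (-0.11) nor Cox8c (-0.05) passed the test. Of 10 markers of heart and skeletal muscle, 2 (Actc1 and Ckm) reached the minimum and 0 passed.

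Complex V has a catalytic head (F1) joined by a turning shaft and a fixed peripheral stalk to a membrane part (Fo). Of its 14 genes 11 were tested, 4 with a positive and 7 with a negative difference, and the median was -0.05. Atp5e fell and 0 others passed in either fit. Atp5e encodes epsilon, the smallest part of the shaft.

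Atp5e had 2569, 2203, 2509 and 2430 in Confluent and 1458, 1515, 1872 and 1201 in Subconfluent samples. The highest Subconfluent value stayed below the lowest Confluent one. The difference was -0.68 (SE 0.161, adjusted p = 0.0331 by limma), or 1.60-fold lower. It was -0.80 in lot A and -0.72 in lot C, with an adjusted p of 0.346 in lot C alone, 0.0556 with the lot as a block and 0.0509 with no signal filter. The call was also lost without each array but Confluent 2 and Subconfluent 3, with adjusted p-values up to 0.0935, and with the block it was lost without pair 4 (0.0602). The difference stayed between -0.58 and -0.80 in each alternative. Its probe set is not of the plain design.

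The delta subunit, Atp5d, which binds epsilon in the shaft, had the highest difference of all tested members. Its signals were 605, 1249, 937 and 859 in Confluent and 978, 1279.5, 1326 and 1171 in Subconfluent samples. Each pair was higher in its Subconfluent member, and the groups overlapped because of Confluent 2. The difference was 0.40 (SE 0.209, adjusted p = 0.26, and 0.0775 with the block). Without pair 2 it passed with the block, as the one member to rise in any fit (adjusted p = 0.0352, chosen after its value was seen). Its other tested probe sets gave 0.30 and -0.02, so the sets differed in sign. None of its tested sets is of the plain design. Its plain sets stayed under the minimum, with means of 195 and 44.2 in Confluent against 161 and 83.3 in Subconfluent samples.

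The other parts of the head and shaft lay near 0. Atp5a1, the alpha subunit of the head, had 8536, 7674, 7629 and 7597 in Confluent and 7719.9, 6869, 6699.8 and 7188 in Subconfluent samples, a difference of -0.14 (interval -0.41 to 0.13). Atp5c1, the gamma subunit of the shaft, differed by -0.04 (interval -0.34 to 0.27), and its second set by -0.09. The interval of Atp5c1 overlaps that of its shaft partner Atp5e, which ran from -1.04 to -0.33. A difference between these genes was not tested.

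In the peripheral stalk Atp5pb, Atp5j and Atp5o differed by 0.17, 0.12 and -0.11. In the membrane part the rotor-ring gene Atp5g2 differed by -0.08 (interval -0.38 to 0.22), and Atp5g1, another gene for the same ring protein, lay just under the minimum at 189.7 ± 35.4 (SD, n = 4) in Confluent and 185 ± 57.2 (SD, n = 4) in Subconfluent cells. Atp5l, a membrane subunit at the dimer interface, had the lowest difference of this part, -0.25 (adjusted p = 0.406), and was lower in 4 of 4 pairs. Atp5j2 and Atp5k stayed under the minimum.

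The assembly factors taken in by the rule did not pass. Sdhaf2, which helps attach flavin to Sdha, differed by -0.28 (adjusted p = 0.337). Sdhaf1, which serves iron-sulfur insertion into complex II, differed by 0.18, and Ndufaf1, a complex I assembly factor, by -0.08. Ndufaf4, another complex I assembly factor, was under the minimum, with 104 to 197 in Confluent and 167 to 271 in Subconfluent samples.

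Groups that did not overlap were counted over the 60 tested members. In 9 of 60 members (15%) all 4 Subconfluent signals lay below all 4 Confluent ones, against 8.54% of all probe sets tested. In 0 tested members did they all lie above, against 8.34%. Over the 4670 genes tested these shares were 9.25% and 8.5%. Each of the 4 pairs was lower in 16 tested members and higher in 3 (Cox7a2, Ndufb7 and Atp5d), against 1101 and 972 of 4670 genes. Members under the minimum are outside these counts. Among them the brighter set of Cox5a had all Subconfluent signals (54.3 to 106.4) above all Confluent ones (13.9 to 43.8). Its dimmer set was lower in each pair. Ndufaf4 was also higher in each pair, and Ndufa12 was lower in each. These counts are descriptions of the members, with no test of the list.

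In the Confluent group the members varied together from sample to sample. With 1 array each, array and sample cannot be told apart. Confluent 1 was the lowest of its group in 28 of 60 members (46.7%), against 32.2% of all genes tested. Confluent 4 was the lowest in 3 (5%), against 19.7%. For Subconfluent 1 to 4 these shares were 30%, 36.7%, 18.3% and 15%, against 24.5%, 33%, 24.9% and 17.6% of all genes tested. Over the members the mean on Confluent 1 lay 0.11 below the group mean and that on Confluent 4 lay 0.10 above it, while the Subconfluent arrays lay 0.05 to 0.12 below it. The Confluent arrays thus differed among themselves by more than the members' mean did between densities. Same-numbered samples deviated together over the members, with correlations across the 60 genes of 0.67, 0.26, 0.37 and 0.20 in pairs 1 to 4. Over all probe sets tested these were 0.49, 0.36, 0.52 and 0.35, so this is not particular to the members. Only in pair 1 was the value higher over the members, and genes are not independent replicates.

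**Figure D3:**
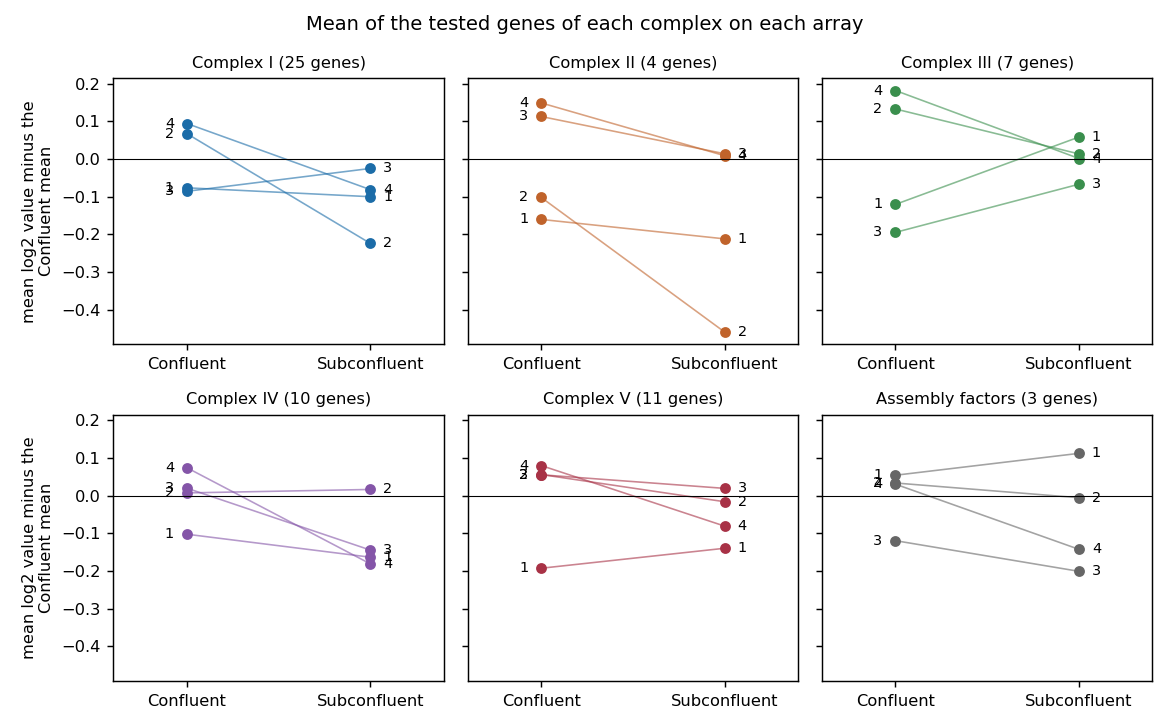
Mean over the tested genes of each complex on each array (vertical axis, log2(signal + 50) minus the mean of the 4 Confluent arrays), with numbers for the samples and lines joining same-numbered pairs. Subconfluent and Confluent arrays overlap in all 6 panels, and in complex V the array Confluent 1 lies at -0.19 while the other 3 Confluent arrays lie at 0.06 to 0.08.

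With the chip lot as a block, the medians by complex were 0.09 for complex I, 0.10 for complex II, 0.14 for complex III, -0.13 for complex IV and -0.04 for complex V. Of these only that of complex I moved by more than the spread between replicates. Within lot A complex IV had a median of 0.06 and within lot C of -0.24. Complexes I and II were thus slightly negative in the whole set and slightly positive with lots as a block.

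The promoters were read to see what sequence the members share. RefSeq windows of 300 bases (GRCm38.p6, 250 before and 50 after the annotated start) were found for 60 of the 73 genes, as 65 windows. Letters of 5 motifs tied in the literature to respiratory genes were searched on both strands. CGCATGCG, the palindromic core of the NRF1 site, was in 13.8% of members' windows, 4.17% of those of all genes tested and 1.87% of all 32851 windows. AAGATGGC, a YY1 motif, was in 12.3%, 4.8% and 2.75%. CCGGAAGT, an ETS motif of the kind GABP binds, was in 6.15%, 9.26% and 3.89%. TGACGTCA, the cyclic AMP element, was in 3.08%, 3.07% and 1.79%, and AAGGTCA, an ERR half-site, in 7.69%, 3.22% and 4.72%. The members' windows include those of genes under the minimum, while the windows of all genes tested do not, so these sets are unlike. These shares are descriptions, and a match is not a bound site.

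The windows with the NRF1 core are shown because it stood highest above the share of all promoters. Each line gives the motif in capitals with up to 10 bases on either side, 5′ to 3′ on the gene's strand, and the gene's own difference is given after the lines.
Atp5g2: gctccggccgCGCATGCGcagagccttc
Atp5j: ggccagaataCGCATGCGtacagtgcag
Atp5k: ttcactgcggCGCATGCGcctttctggc
Atp5l: aaccaataaCGCATGCGcatttccccc
Cox6a1: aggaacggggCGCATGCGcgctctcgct
Ndufa8: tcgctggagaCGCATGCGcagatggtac
Ndufaf4: cagatgtctgCGCATGCGcctgtgcgga
Uqcr11: atcgccttcaCGCATGCGctatacgtct
Uqcrc1: ctccgctctgCGCATGCGcagcgcggct
Of these 9 genes 7 were tested and 0 passed. Their differences ran from -0.25 (Atp5l) to 0.17 (Ndufa8), with Uqcrc1 at 0.15, Atp5j at 0.12, Uqcr11 at -0.05, Atp5g2 at -0.08 and Cox6a1 at -0.16. They belong to complexes I, III, IV and V, with 1 assembly factor.

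The YY1 letters lay at or just after the annotated start in 7 of 8 genes, and these letters include those of a start codon. Lines follow the same format.
Atp5j: aagtgtaggaAAGATGGCggagtcttag
Atp5j2: ccaggacttcAAGATGGCgtcactcggt
Atp5pb: tgtgcgagcgGCCATCTTgctcctgccc
Ndufa3: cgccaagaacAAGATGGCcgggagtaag
Ndufa9: attgtgggagAAGATGGCggccgccgtc
Ndufb8: ggagaaggtgAAGATGGCtgcc
Ndufc1: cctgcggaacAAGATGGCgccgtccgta
Ndufs4: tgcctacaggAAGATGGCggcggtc
Ndufa3, whose tested probe set is not of the plain design, is the one gene of this set that fell with the block. The 5 others tested lay between -0.09 (Ndufa9) and 0.17 (Atp5pb). In Atp5pb the letters appear as the reverse complement.

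The 250 bases before the start are given for the 3 genes that fell, since they are the members whose difference passed the test. None of the 5 motifs occurs in these stretches, so no base is in capitals. That says only that those letters are not in these windows. The stretches are chr17:31519865-31520114 on the plus strand for Ndufv3, chr17:83514334-83514583 on the minus strand for Cox7a2l and chr2:174464102-174464351 on the minus strand for Atp5e, each 5′ to 3′ on the gene's strand.
Ndufv3: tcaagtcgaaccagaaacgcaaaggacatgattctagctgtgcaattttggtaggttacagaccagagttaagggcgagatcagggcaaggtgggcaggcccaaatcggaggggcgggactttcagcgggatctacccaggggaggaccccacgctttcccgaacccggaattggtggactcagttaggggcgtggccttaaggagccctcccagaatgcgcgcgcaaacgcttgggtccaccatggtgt
Cox7a2l: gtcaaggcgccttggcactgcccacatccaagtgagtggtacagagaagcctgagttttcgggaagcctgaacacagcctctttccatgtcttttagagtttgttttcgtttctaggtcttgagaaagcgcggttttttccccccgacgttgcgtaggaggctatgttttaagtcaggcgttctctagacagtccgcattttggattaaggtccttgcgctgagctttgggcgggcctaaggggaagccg
Atp5e: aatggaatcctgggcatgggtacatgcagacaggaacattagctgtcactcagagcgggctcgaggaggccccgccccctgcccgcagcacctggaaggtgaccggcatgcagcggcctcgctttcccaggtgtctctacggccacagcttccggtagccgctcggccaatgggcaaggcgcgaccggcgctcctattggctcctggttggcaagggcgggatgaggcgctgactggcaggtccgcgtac
The GC content of these stretches was 57.6%, 52% and 65.6%, against a median of 57.6% over the members' windows, 60.4% over those of genes tested on the arrays and 52.4% over all. In Atp5e the ERR half-site occurs after the start, as the reverse complement (tactcaggccTGACCTTcctgctgccg).

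Other mitochondrial gene lists were set beside the members. Among 9 tested electron carriers and dehydrogenases that feed ubiquinone, 0 passed, while 2 rose (22.2%) and 4 fell (44.4%) with the block, against 9.94% and 11.3% of all probe sets. Sqor, which oxidises sulfide and averaged 187 in Subconfluent samples, under the minimum, differed by -1.16 (adjusted p = 0.0511, and 0.00867 with the block), and Coq9, needed for ubiquinone synthesis, by -0.65 (0.052, and 0.0143 with the block). Both subunits of the electron transfer flavoprotein, Etfa (-0.48) and Etfb (-0.50), fell with the block. Cyc1, the cytochrome of complex III that the symbol rule does not reach, rose with the block at 0.47 (adjusted p = 0.028). So did Gpd2 at 0.62 (0.0177), on a probe set that is not of the plain design. Of these 6 block calls only that of Sqor survived the removal of any 1 pair.

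Of 15 tested assembly factors outside the rule 0 passed. Uqcc3, a complex III assembly factor, differed by -0.72 and fell with the block (adjusted p = 0.0443), a call lost without pair 1, 2 or 3. Surf1, a complex IV assembly factor, differed by -0.42 (adjusted p = 0.139). The 4 tested carriers and porins had a median of 0.12, led by the adenine nucleotide carrier Slc25a5 at 0.46 (adjusted p = 0.175). None of the 13 mitochondrially encoded subunits was analysed here, and these include the membrane core of complexes I, III and IV.

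Among 16 tested genes of the citric acid cycle and pyruvate dehydrogenase 1 fell (6.25%) and 0 rose, with a median of -0.01. Of all genes tested 4.39% fell and 2.83% rose. Pcx, pyruvate carboxylase, which refills the cycle, had 438, 244, 365 and 287 in Confluent and 59.3, 42.8, 195 and 109 in Subconfluent samples. It averaged 333 in Confluent and 102 in Subconfluent samples, so it reached the minimum only through the group where it is high. The groups did not overlap, and the difference was -1.42 (SE 0.308, adjusted p = 0.0272 by limma). The probe set of Pcx is not of the plain design. The call was lost without each array but Confluent 2 and Subconfluent 3 (adjusted p up to 0.0715). Idh2, a mitochondrial NADPH source, fell with the block at -0.55 (adjusted p = 0.0231), a call lost without any 1 pair.

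Among 8 tested regulators 1 rose (12.5%) and 0 fell, with 7 positive differences (87.5%) and a median of 0.18. Of all genes tested 2.83% rose and 50.5% had a positive difference. Pprc1, a growth-responsive coactivator of respiratory genes, had 297, 403, 402.5 and 329.8 in Confluent and 578, 589, 627 and 664 in Subconfluent samples. The groups did not overlap, and the difference was 0.71 (SE 0.151, adjusted p = 0.0249 by limma). Its call was lost without each array but Confluent 2 and Confluent 3, with adjusted p-values up to 0.0694. Gabpb1, a subunit of GABP, differed by 0.29 (adjusted p = 0.329).

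The genes that build mitochondria had higher medians than the chain itself. Of 18 tested import and inner membrane chaperone genes 0 passed, 4 rose with the block (Timm8a1, Timm17a, Timm13 and Timm23), and 15 differences were positive, with a median of 0.28. The share that rose with the block was 22.2%, against 9.94% of all probe sets, and 83.3% of the differences were positive, against 50.5% of all genes tested. Timm8a1, a small import chaperone, differed by 1.16 (adjusted p = 0.0564) and Timm17a, a part of the import channel, by 0.61 (0.0618). The block calls of Timm17a, Timm13 and Timm23 were lost without pair 1 or pair 3. That of Timm23 was also lost without pair 4 (adjusted p = 0.0665), and that of Timm8a1 was kept. Of 55 tested mitochondrial ribosomal proteins 2 rose and 0 fell, 7 rose and 1 fell with the block (Mrpl24), and 40 differences were positive, with a median of 0.12. The shares that rose were 3.64%, and 12.7% with the block, near the 2.75% and 9.94% of all probe sets, while 72.7% of the differences were positive against 50.5% of all genes tested. Of the 8 block calls only that of Mrpl12 was kept without any 1 pair. Mrps7 rose by 0.74 (adjusted p = 0.0308) and Mrpl20 by 0.75 (0.047), and both calls were lost without each array but Confluent 2, with adjusted p-values up to 0.107. The difference between these medians and that of the members was not tested.

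**Figure D4:**
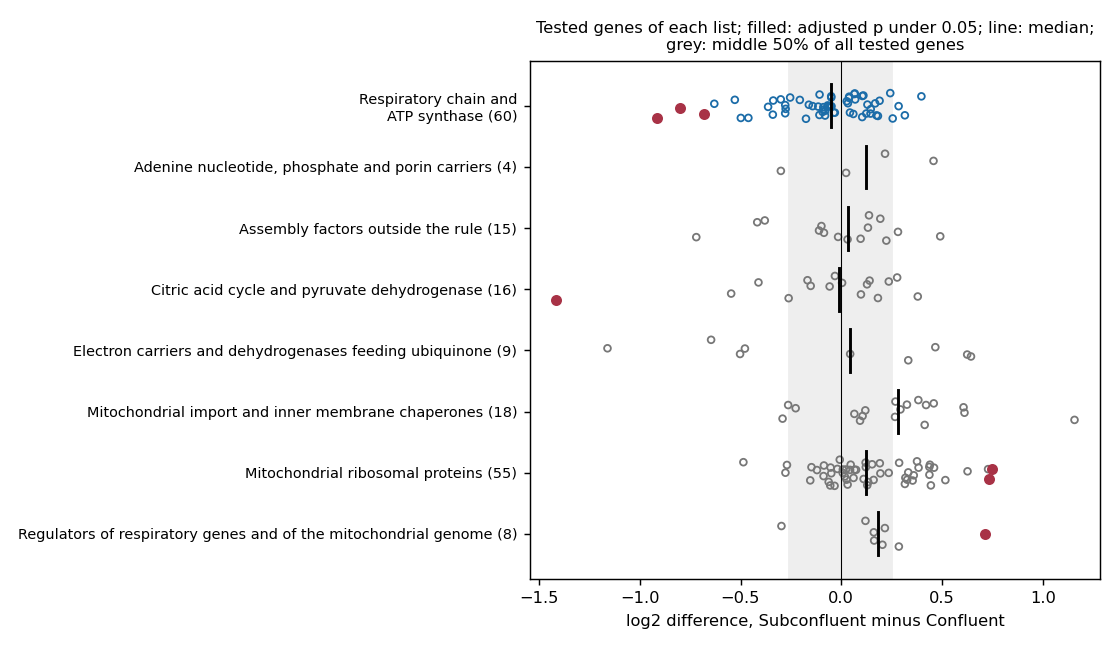
Difference of each tested gene (horizontal axis, log2 scale, Subconfluent minus Confluent) in the members and in 7 other mitochondrial lists, with filled points for an adjusted p under 0.05, a line at each median and a grey band for the middle 50% of all tested genes. The members' median is -0.05 and their 3 filled points are all to the left, while the import genes have a median of 0.28 and the ribosomal proteins 2 filled points to the right.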

How the data were processed

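Signals were deposited by the authors as 1 value per probe set and array on a linear scale, made with Affymetrix's statistical algorithm and scaled to a target of 500, per the labels' descriptions; the software version is not given in the sources used here. Depth has no meaning for arrays, so the number of arrays limits the precision. Probe sets were named through the platform annotation of the array, and all 100 member probe sets matched RefSeq. Of all probe sets besides controls 10833 had 1 symbol, 396 several and 1193 none, and 10 member probe sets with several symbols were left out (9 tested, 0 called).

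Log2(signal + 50) was fitted with limma 3.58.1 in R 4.3.3 (lmFit, eBayes with a trend), over probe sets whose signals averaged 200 or more, with Benjamini-Hochberg adjustment over all 6007 and a threshold of 0.05. The fit was tested on simulated data. Same-numbered samples correlated in their deviations from the group means at 0.35 to 0.52, other pairs at 0.07 or less, and the labels number them as experiments, so the replicate block was read as a pairing. Of the member probe sets 37 carry an ending other than plain _at, by which the array's design marks sets that relaxed its rules or may be shared (22 tested).

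Named genes were all members that passed, the 3 smallest p-values and the extremes of each complex, the isoform families, the core subunits, and the first 2 of each other list. Genes with a replicate-block call, distal-arm genes and small subunits were added after their values were seen. The members, lists and tests were chosen with earlier results of these data known. Alternatives were another pseudocount, filter, normalization, array weights, scale factor, chip lot, probe set choice and leaving out arrays or pairs.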

Additional observations from a re-analysis of the deposited data

Results flagged for a closer look

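With 84 groups of 4 samples examined, 5 had a sample far from the other 3, where chance alone flags about 1 in 20. Ndufv3 on Subconfluent 2 had a signal of 438, against 687 to 718 on the other Subconfluent arrays. Sdhb on the same array had 1096, against 1606 to 1696. Atp5a1 on Confluent 1 had 8536, against 7597 to 7674 on the other Confluent arrays. The mean of complex V on Confluent 1 was -0.19 from the group mean (log2), against 0.06 to 0.08. The mean of the matched assembly factors on Confluent 3 was -0.12, against 0.03 to 0.05.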

How the results depend on the processing

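No alternative reversed a called difference. The count of members that fell (3) was 8 with the replicate block, 6 with the chip lot as a random block, 5 with array weights, 1 with no signal filter and 0 within lot C, and ran from 0 to 3 when each array was left out. The array without which it was 0 was Confluent 4, and it was 1 without Confluent 1 or 3 or Subconfluent 1, 2 or 4. With the replicate block the count that fell (8) ran from 3 to 4 and the count that rose (0) from 0 to 1 when each pair was left out. In the other alternatives the count that fell was 2 or 3, and 0 members rose in any unpaired alternative. The median of complex I (-0.03) was 0.086 with lot blocked and 0.091 in lot A alone, that of complex II (-0.08) 0.13 within lot A, and that of complex IV (-0.10) 0.056 within lot A and -0.24 within lot C. The median of the assembly factors (-0.08) was 0.051 with no filter and -0.28 with a minimum of 500, where fewer genes were tested; the cause of the other shifts was not tested. The replicate block changed the calls given with the results and no others among the members. With 4 arrays a group, 32 of 60 members have an interval reaching past 0.5, so changes of that size are not excluded in them.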
